A study of Mus musculus with 8 samples.

Results

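The 36 genes described here encode enzymes and regulators of cholesterol and fatty acid synthesis. They were chosen by symbol, with no measured value in the rule, from 52636 gene IDs in the deposited tables. Earlier results of these data were known when the choice was made. Of the 36, 18 encode enzymes of sterol synthesis, 12 act in fatty acid synthesis, elongation, desaturation or activation, and 6 are SREBP regulators or a sterol carrier. Each symbol matched 1 gene ID. A level of at least 1 TPM in 4 or more of the 8 libraries was required for testing, and 33 of the 36 genes reached it. Srebf1, Acaca and Fads1 did not.

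RNA came from whole co-cultures of colon cancer cells with splenocytes. The cancer cells were grown as organoids with a tdTomato reporter, injected into the spleen and recovered from liver metastases. They were sorted on tdTomato and CD4 into trogocytic and non-trogocytic cells, the second being the control. Trogocytosis is the uptake of membrane protein from another cell, and CD4 is a T cell protein. Both kinds were kept for 5 days, at a ratio of 1 to 50, with splenocytes from syngeneic Actin-GFP reporter mice, on the C57BL/6 background, with 4 libraries per group. The labels give no driver mutations of the organoids, no age of the mice, and no statement that replicates came from separate animals or cultures, so p-values cover only how far these libraries differ, and that may be technical. Since RNA came from a mixture, fewer cells of a type and less RNA per cell cannot be told apart in any value below.

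Cholesterol is built from acetyl-CoA through mevalonate, farnesyl diphosphate, squalene and lanosterol. The transcription factors SREBP1 and SREBP2, encoded by Srebf1 and Srebf2, drive most of these genes. They are held in the endoplasmic reticulum with the escort SCAP by INSIG proteins while sterols are plentiful, and are released when sterols fall. SREBP2 acts mainly on sterol genes and SREBP1c mainly on fatty acid genes. Proliferating carcinoma cells and activated lymphocytes are both known to raise these pathways.

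Depth was similar, at 1.39 to 1.84 Gb aligned per library, with 10867 to 12362 genes reaching 1 TPM. Colon epithelial and leukocyte transcripts were present in every library. The summed level of 12 colon epithelium and carcinoma markers ran from 3389 to 9470.15 TPM in the non-trogocytic group and from 5470.11 to 7206 TPM in the trogocytic group. The summed level of 5 pan leukocyte markers ran from 605 to 3068 TPM and from 838 to 2191 TPM. All 6 hepatocyte markers were listed at 0 in 7 libraries and summed to 155 TPM in non-trogocytic replicate 3, with Alb at 36.5 TPM. The 4 adipocyte markers were listed at 0 throughout. The 5 fibroblast markers summed to 0.56 to 33.3 TPM in non-trogocytic and 0 to 0.185 TPM in trogocytic libraries. Col1a1, Col1a2 and Col3a1 were above 0 in every non-trogocytic library, up to 7.40 TPM, and listed at 0 in every trogocytic one. Dcn reached 22.1 TPM in non-trogocytic replicate 3. None of these fibroblast markers passed the filter for testing. Over all 11433 tested genes, limma called 6 at an adjusted p below 0.05, which is 0.0525%.

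Among these genes, sterol synthesis transcripts summed higher than fatty acid synthesis transcripts in every co-culture. The 18 sterol genes summed to 2241 ± 613 TPM in the control group and 2172 ± 239 TPM in the trogocytic group (SD, n = 4 each). The 12 fatty acid genes summed to 282.5 ± 113 and 255 ± 21.6 TPM. The ratio of the sums was 8.28 ± 1.90 and 8.53 ± 0.932. The ratio depends on which genes are summed: with the other sterol and fatty acid synthesis genes listed further on added, it was 2.29 ± 0.264 and 2.36 ± 0.194. Of the sterol genes, 13 of 18 had a mean of at least 20 TPM over the 8 libraries, against 4 of 12 fatty acid genes. A mean below 5 TPM was found for 13 of all 36 genes.

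**Figure D1:**
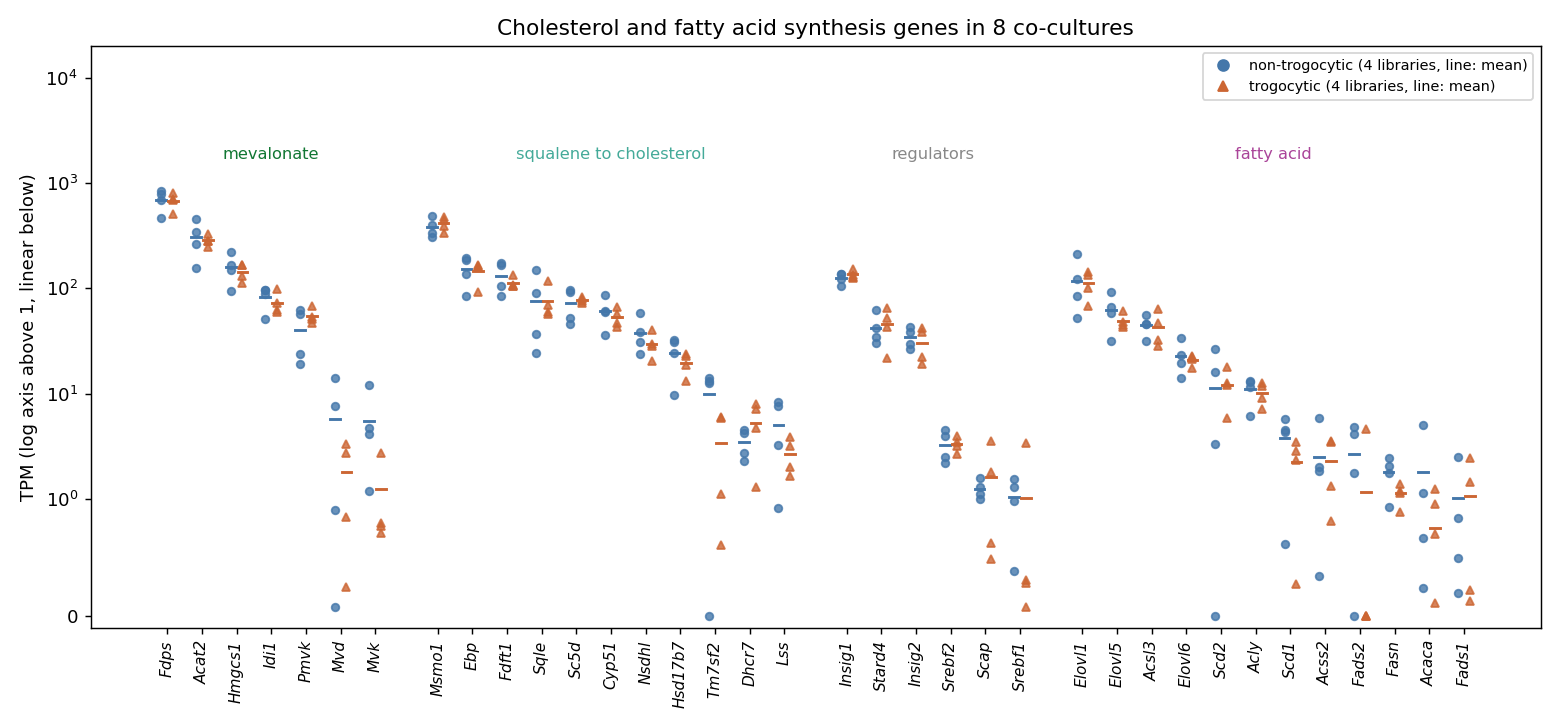
TPM of the 36 genes in each of 8 libraries, grouped by role and ordered by mean level; points are libraries, short lines are group means, and the vertical axis is logarithmic above 1 TPM and linear below. Sterol genes reach 833 TPM (Fdps), Acaca, Fasn and Srebf1 lie near 1 TPM, and the groups overlap for each gene.

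In the mevalonate arm, the enzymes that start and end the route to farnesyl diphosphate were highest. Fdps, the synthase that makes farnesyl diphosphate (ENSMUSG00000059743.12, chromosome 3, 89093588 to 89101959), stood at 468, 784, 682 and 833 TPM in non-trogocytic replicates 1 to 4 and at 509, 795, 687 and 710.4 TPM in trogocytic replicates 1 to 4. The first replicate was the lowest of its group on both sides, and the groups overlapped. Acat2, the cytosolic thiolase that joins acetyl-CoA units (ENSMUSG00000023832.13, chromosome 17, 12942890 to 12960747), stood at 156, 459, 263 and 339 TPM in non-trogocytic replicates 1 to 4 and at 280.3, 284, 249.1 and 326 TPM in trogocytic replicates 1 to 4. Non-trogocytic replicates 1 and 2 were the lowest and the highest of all 8 libraries, with the trogocytic libraries between them. Its near-identical neighbour Acat3 stood at 25.1 to 72.6 TPM, so the division of reads between them is uncertain. Hmgcs1, the HMG-CoA synthase, stood at 158 ± 52.4 and 143 ± 27.3 TPM (SD, n = 4 each), and Idi1, the isopentenyl diphosphate isomerase, at 82.9 ± 21.5 and 72.9 ± 17.6 TPM.

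The middle steps, from mevalonate to isopentenyl diphosphate, were uneven. Pmvk, phosphomevalonate kinase (ENSMUSG00000027952.16, chromosome 3, 89454541 to 89469013), stood at 23.6, 61.8, 19.1 and 56.8 TPM in non-trogocytic replicates 1 to 4 and at 51.2, 46.5, 68.1 and 53.3 TPM in trogocytic replicates 1 to 4. Non-trogocytic replicates 1 and 3 were lower than the other 6 libraries. Mvk, mevalonate kinase (ENSMUSG00000041939.14, chromosome 5, 114444269 to 114460591), stood at 4.14, 12.1, 4.73 and 1.19 TPM in non-trogocytic replicates 1 to 4 and at 2.75, 0.764, 0.795 and 0.712 TPM in trogocytic replicates 1 to 4. Only trogocytic replicate 1 reached above the lowest non-trogocytic library, and the groups overlapped there. Mvd, the decarboxylase that follows Pmvk, ran from 0.0723 to 14.2 TPM over the 8 libraries. Thus Mvk and Mvd averaged 3.40 and 3.74 TPM, in the same linear pathway as Fdps at 684 TPM.

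In the arm from squalene to cholesterol, Msmo1 and Ebp were highest. Msmo1, the sterol C4-methyl oxidase (ENSMUSG00000031604.10, chromosome 8, 64718139 to 64733792), stood at 304, 397, 483 and 337 TPM in non-trogocytic replicates 1 to 4 and at 337, 477, 391 and 443 TPM in trogocytic replicates 1 to 4. It varied least of the sterol genes, with a ratio of highest to lowest library of 1.59. Ebp, the sterol isomerase (ENSMUSG00000031168.14, chromosome X, 8185329 to 8193512), stood at 84.5, 196, 137 and 187 TPM in non-trogocytic replicates 1 to 4 and at 91.6, 165, 159.6 and 163 TPM in trogocytic replicates 1 to 4. Replicate 1 of each group was below the other 6 libraries. Fdft1, squalene synthase, stood at 132 ± 44.6 and 113 ± 13.9 TPM, but it overlaps the lysosomal protease gene Ctsb by 774 bases on the other strand, which averaged 601 TPM. The counting strand is not given in the sources used here, so its level is uncertain.

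Sqle, squalene epoxidase and a rate-limiting step, varied more, from 24.3 to 149 TPM. Its lowest and highest values were again non-trogocytic replicates 1 and 2. Sc5d, the C5-desaturase, averaged 74.7 TPM, Cyp51, the lanosterol demethylase, 57.0 TPM, Nsdhl, the C3-dehydrogenase, 33.8 TPM and Hsd17b7, the 3-ketosteroid reductase, 22.0 TPM. Nsdhl stood at 38.2, 58.7, 31.0 and 23.9 TPM in non-trogocytic replicates 1 to 4 and at 28.6, 20.4, 29.6 and 39.9 TPM in trogocytic replicates 1 to 4. The groups overlapped, with non-trogocytic replicate 2 highest and trogocytic replicate 2 lowest.

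Lss, Tm7sf2 and Dhcr7 were far lower. Lss, lanosterol synthase, which closes the sterol rings, averaged 3.86 TPM. Dhcr7, the reductase of the last step, averaged 4.36 TPM. Tm7sf2, the C14-reductase (ENSMUSG00000024799.14, chromosome 19, 6062821 to 6068373), stood at 0, 13.1, 14.1 and 12.7 TPM in non-trogocytic replicates 1 to 4 and at 0.606, 5.94, 1.11 and 5.91 TPM in trogocytic replicates 1 to 4. It was listed at 0 in non-trogocytic replicate 1, below every trogocytic library, so the groups overlapped. Tm7sf2 overlaps Vps51 by 532 bases on the same strand, which averaged 12.6 TPM. Lbr, the lamin B receptor, which carries the same C14-reductase activity, stood at 260.2 ± 52.0 and 277 ± 74.0 TPM (SD, n = 4 each).

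The regulators showed high INSIG and low SREBP transcripts. Insig1, an SREBP target whose protein retains SCAP (ENSMUSG00000045294.11, chromosome 5, 28071363 to 28078662), stood at 136, 105, 124 and 138 TPM in non-trogocytic replicates 1 to 4 and at 154, 127, 135 and 125 TPM in trogocytic replicates 1 to 4. It was the steadiest of all 36 genes, with a ratio of highest to lowest library of 1.46. Insig2, its paralog, stood at 26.6, 29.6, 38.3 and 42.5 TPM in non-trogocytic replicates 1 to 4 and at 19.0, 42.1, 38.3 and 22.2 TPM in trogocytic replicates 1 to 4. Stard4, a carrier of cholesterol between membranes, stood at 30.0, 61.5, 41.6 and 34.8 TPM in non-trogocytic replicates 1 to 4 and at 21.9, 64.6, 43.0 and 52.4 TPM in trogocytic replicates 1 to 4. For Insig2 and Stard4, trogocytic replicate 1 was the lowest of the 8 libraries. The transcripts of the factors themselves were scarce. Srebf2 averaged 3.30 TPM and ranged from 2.19 to 4.50 TPM, Scap averaged 1.43 TPM, and Srebf1 averaged 1.04 TPM and ranged from 0.0758 to 3.42 TPM.

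In the fatty acid branch, elongases were the abundant transcripts. Elovl1, which elongates saturated very long chains, stood at 51.8, 210.1, 84.0 and 121 TPM in non-trogocytic replicates 1 to 4 and at 135, 142, 67.3 and 102 TPM in trogocytic replicates 1 to 4. Non-trogocytic replicates 1 and 2 were again the lowest and the highest. It overlaps Cdc20 by 53 bases on the other strand. Elovl5, the elongase of polyunsaturated chains, stood at 58.8, 92.8, 31.5 and 66.9 TPM in non-trogocytic replicates 1 to 4 and at 44.3, 42.9, 48.2 and 60.3 TPM in trogocytic replicates 1 to 4. The non-trogocytic libraries spanned the trogocytic ones. Acsl3, which activates long-chain fatty acids with CoA, averaged 43.8 TPM, and Elovl6, which extends palmitate, 21.8 TPM.

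The enzymes that build palmitate were low. Acly, which makes cytosolic acetyl-CoA from citrate, averaged 10.5 TPM. Acss2, which makes it from acetate, averaged 2.40 TPM, and it overlaps Gss on the other strand, at a mean of 47.4 TPM. Acaca, acetyl-CoA carboxylase, the committed step, averaged 1.27 TPM and ranged from 0.111 to 5.08 TPM. Fasn, fatty acid synthase, averaged 1.47 TPM and ranged from 0.888 to 2.47 TPM. Fasn and Acss2 were highest in non-trogocytic replicate 3, the library with hepatocyte transcripts, as were the sterol genes Msmo1 and Tm7sf2. Acly and Elovl5 were lowest in that library, at 6.09 and 31.5 TPM, as was the sterol gene Pmvk, at 19.1 TPM. The part of hepatocyte transcripts in these levels was not tested.

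Desaturases were low and irregular. Scd2, a stearoyl-CoA desaturase, stood at 3.29, 26.4, 15.9 and 0 TPM in non-trogocytic replicates 1 to 4 and at 5.88, 12.6, 17.96 and 12.2 TPM in trogocytic replicates 1 to 4. It was listed at 0 in 1 non-trogocytic library and exceeded 10 TPM in 5 of the 8. Scd1, its paralog, averaged 3.01 TPM. Scd3 averaged 0.0321 TPM and Scd4 was listed at 0. Fads2, the first desaturase of polyunsaturated fatty acid synthesis, stood at 4.17, 1.76, 0 and 4.78 TPM in non-trogocytic replicates 1 to 4 and at 0, 0, 4.65 and 0 TPM in trogocytic replicates 1 to 4. It was listed at 0 in 1 non-trogocytic and 3 trogocytic libraries. Fads1, the next desaturase, averaged 1.04 TPM. At these depths a level of a few TPM rests on few reads.

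Transcript base composition differed between the abundant and the scarce genes. GC content was taken from the longest protein-coding transcript of each gene in GENCODE M21, matched by gene ID without its version for all 36 genes. The 18 genes below the median GC of all protein-coding genes, 49.8%, had a median level of 49.8 TPM, and the 18 above it 3.80 TPM. Among sterol genes the medians were 75.5 TPM for 9 and 6.67 TPM for 9. The scarce Mvk, Mvd and Tm7sf2 have 59.6%, 59.3% and 56.5% GC, and Srebf1, Scap and Fasn 58.4%, 59.1% and 57.9%. Msmo1, Hmgcs1 and Idi1 have 45.2%, 43.1% and 41.9%. Fdps, at 54.5%, Pmvk, at 57.0%, and Acaca, at 49.1%, go the other way, as do the abundant Ebp, Fdft1 and Elovl1, at 50.9%, 51.8% and 52.5%, and the scarce Scd1, at 47.1%.

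The same direction was seen over all genes, less steeply. Over 14295 protein-coding genes above 0 in a library, the median level was 9.19 TPM below and 2.60 TPM above that GC content. Spearman's rho between GC content and log2(mean TPM + 1) was −0.23 over these genes and −0.49 over the 36. It is a description across genes, which share libraries and are not independent. Between 55% and 60% GC, 1 of 8 of the 36 genes reached 20 TPM, against 17.9% of all protein-coding genes there. Below 45%, all 8 of 8 did, against 42.2% of the genes between 40% and 45%. Transcript length was also related to level, with a rho of −0.22 over all these protein-coding genes and −0.44 over the 36. It was −0.42 over the 12 fatty acid genes, but only −0.049 over the 18 sterol genes. The part of base composition in the measured levels was not tested.

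**Figure D2:**
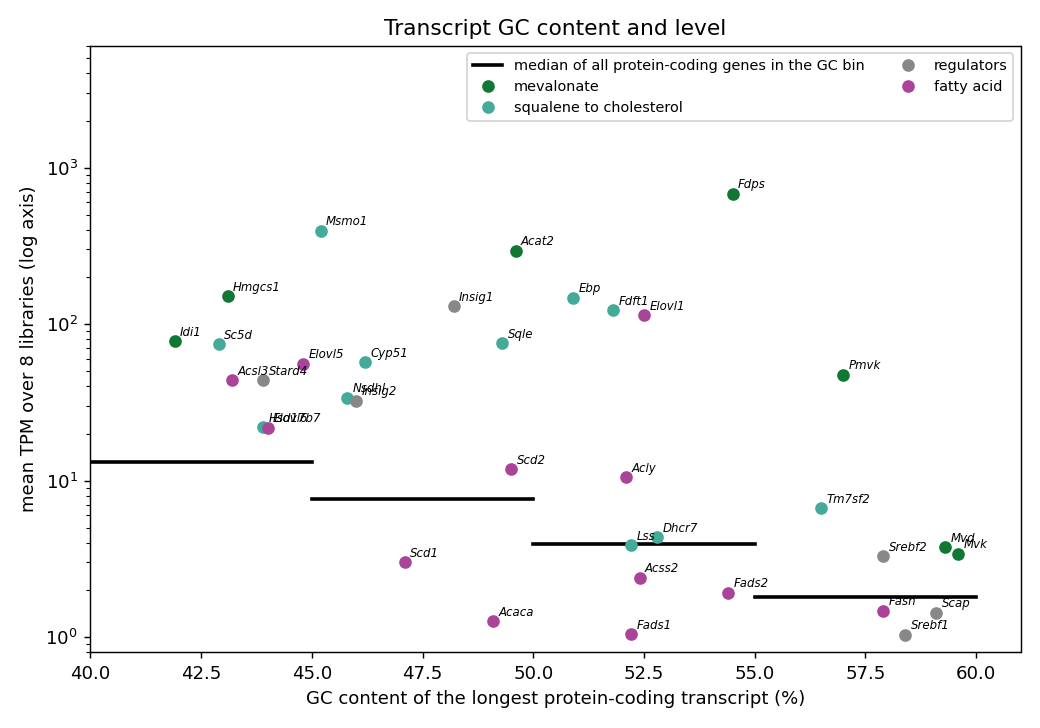
Mean TPM over 8 libraries (vertical, logarithmic) against GC content of the longest protein-coding transcript (horizontal, percent) for the 36 genes, coloured by role; black lines are medians of all protein-coding genes in bins of 5 percentage points. Genes below 45% GC all lie above 20 TPM, while Mvk, Mvd, Scap, Srebf1 and Fasn, at 57.9% to 59.6%, lie below 5 TPM.

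SREBP is known to act with the factor NF-Y, which binds CCAAT boxes, so the promoters were read as a feature that the choice of genes did not use. RefSeq windows of GRCm38.p6 matched 29 of the 36 symbols, and the 250 bases before each start site were searched on both strands for CCAAT. The motif was present in a window of 14 of 15 sterol genes, 93.3%, with Acat2 the exception. It was present for 5 of 9 fatty acid genes, 4 of 5 regulators, and 40.8% of 7526 protein-coding genes tested here. The sterol regulatory element core, TCACNCCAC, matched 1 of the 29 genes, Hmgcs1, against 1.09% of tested protein-coding genes. A match is a description of letters, not a site.

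The upstream windows of 5 genes are shown because scarce and abundant genes share the CCAAT box: Hmgcs1 and Msmo1 were abundant, and Mvd, Lss and Fasn scarce. Sequences run 5′ to 3′ on the gene's strand, end at the base before the start site and are from RefSeq, GRCm38.p6. Capitals mark CCAAT on either strand (ATTGG on the reverse) and, in Hmgcs1, the element core.
Hmgcs1 (chr13:119690101-119690350, plus strand): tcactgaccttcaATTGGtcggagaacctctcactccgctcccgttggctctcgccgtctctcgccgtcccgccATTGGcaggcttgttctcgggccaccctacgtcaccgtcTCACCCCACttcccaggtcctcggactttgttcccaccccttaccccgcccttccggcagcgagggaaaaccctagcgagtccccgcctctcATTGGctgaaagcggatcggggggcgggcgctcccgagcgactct
Msmo1 (chr8:64733579-64733828, minus strand): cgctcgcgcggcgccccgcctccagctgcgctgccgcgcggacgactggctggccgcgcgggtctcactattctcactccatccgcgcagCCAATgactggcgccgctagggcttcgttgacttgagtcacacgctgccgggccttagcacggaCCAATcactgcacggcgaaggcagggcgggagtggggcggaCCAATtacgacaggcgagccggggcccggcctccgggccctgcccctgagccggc
Mvd (chr8:122443423-122443672, minus strand): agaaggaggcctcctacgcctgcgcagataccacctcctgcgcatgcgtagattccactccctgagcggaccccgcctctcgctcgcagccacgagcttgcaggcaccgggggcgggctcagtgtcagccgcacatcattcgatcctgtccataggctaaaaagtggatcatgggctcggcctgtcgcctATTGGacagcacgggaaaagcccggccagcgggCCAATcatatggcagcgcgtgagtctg
Lss (chr10:76531355-76531604, plus strand): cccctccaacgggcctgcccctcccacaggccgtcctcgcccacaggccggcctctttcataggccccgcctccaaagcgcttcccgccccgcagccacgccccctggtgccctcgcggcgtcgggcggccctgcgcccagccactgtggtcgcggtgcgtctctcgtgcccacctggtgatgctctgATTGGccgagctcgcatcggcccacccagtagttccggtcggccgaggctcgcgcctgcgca
Fasn (chr11:120824548-120824797, minus strand): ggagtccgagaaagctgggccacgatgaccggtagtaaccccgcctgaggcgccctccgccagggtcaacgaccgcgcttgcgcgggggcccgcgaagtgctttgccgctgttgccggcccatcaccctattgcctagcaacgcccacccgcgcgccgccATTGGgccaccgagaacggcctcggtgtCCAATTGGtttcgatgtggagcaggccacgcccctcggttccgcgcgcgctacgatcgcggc
Hmgcs1 and Msmo1 hold 3 boxes each, Mvd 2, Lss 1 and Fasn 3, of which 2 overlap. The windows are 62.8% to 73.6% GC, with Lss highest and Mvd lowest.

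The level of the sterol branch varied widely between control libraries. The mean log2(TPM + 1) of the 18 genes was 4.67, 6.16, 5.34 and 5.72 in non-trogocytic replicates 1 to 4 and 5.22, 5.37, 5.10 and 5.49 in trogocytic replicates 1 to 4. All 18 genes were higher in non-trogocytic replicate 2 than in replicate 1, against 59.97% of all tested genes. For 14 of the 18, replicate 1 was the lowest of the 8 libraries, against 22.3% of all genes. For 11 it was replicate 2 that was highest, against 21.8%. For 9 of the 18, these 2 control libraries held both ends of the range. The trogocytic means over the 18 genes lay between those of these 2 libraries.

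The 12 epithelial markers moved with the sterol genes. Their mean was 5.54, 7.17, 6.15 and 6.57 in non-trogocytic replicates 1 to 4 and 6.11, 6.48, 6.12 and 6.49 in trogocytic replicates 1 to 4. Of them, 11 of 12 were higher in non-trogocytic replicate 2 than in replicate 1, and none of 5 pan leukocyte markers was. The sterol mean lay below the epithelial mean by a nearly constant amount. The difference, sterol minus epithelial, was −0.88 ± 0.090 (SD, n = 4) in non-trogocytic and −1.003 ± 0.089 (SD, n = 4) in trogocytic co-cultures. The SD of the sterol mean itself was 0.63 and 0.17. With the epithelial marker mean as a covariate, an alternative chosen after the data were seen, the median log2 fold change of the sterol genes was −0.078, against −0.12 without it. The epithelial mean differed by only −0.058 ± 0.36 (SE) between the groups, so this covariate had little room to change that median. The part of cell composition in the sterol levels was not tested.

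**Figure D3:**
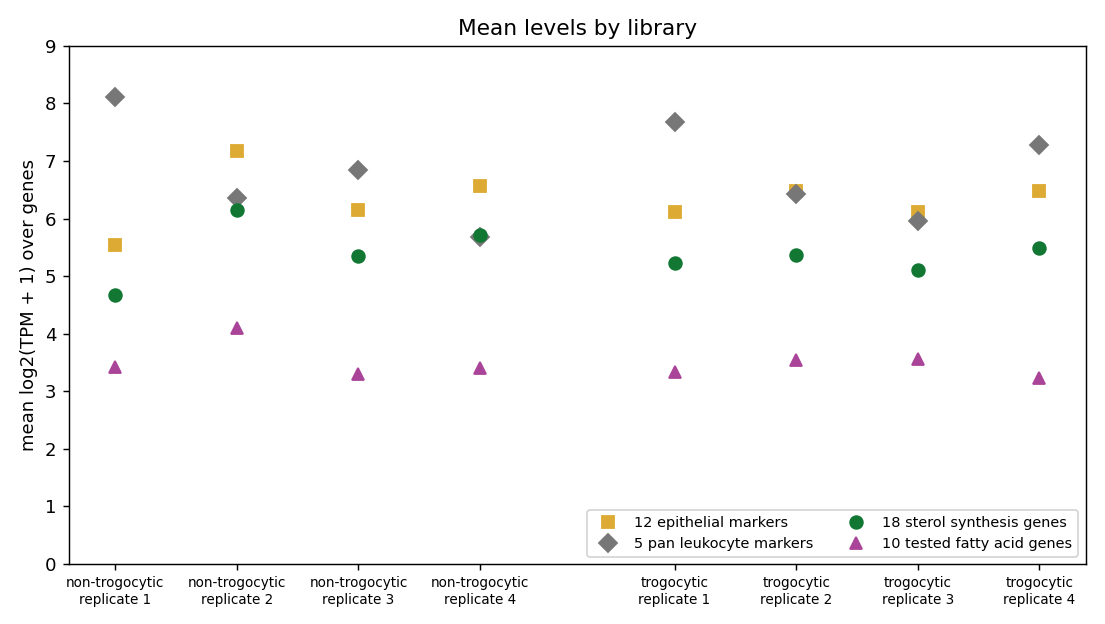
Mean log2(TPM + 1) in each of 8 libraries of 18 sterol synthesis genes, 10 tested fatty acid genes, 12 epithelial markers and 5 pan leukocyte markers. Sterol genes and epithelial markers are both lowest in non-trogocytic replicate 1 and highest in replicate 2, and the leukocyte markers are highest in replicate 1.

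For other sterol genes, fatty acid genes and sterol efflux and storage genes the distance varied more. For 7 tested other genes of sterol and isoprenoid synthesis, it was −1.54 ± 0.47 in non-trogocytic and −1.72 ± 0.23 in trogocytic co-cultures. Of these 7, 1 was lowest in non-trogocytic replicate 1. The fatty acid mean of 10 tested genes was 3.41, 4.09, 3.30 and 3.41 in non-trogocytic and 3.33, 3.55, 3.56 and 3.23 in trogocytic replicates 1 to 4. Its difference from the epithelial mean had an SD of 0.47 and 0.29. For 8 tested genes of LXR signalling, sterol efflux and storage, the SD of that difference was 1.22 and 0.75. Only 1 of these 8 was higher in non-trogocytic replicate 2 than in replicate 1. Among them, Abcg1, a sterol exporter of macrophages, stood at 497, 126, 173 and 87.5 TPM in non-trogocytic replicates 1 to 4 and at 407, 101, 80.9 and 217 TPM in trogocytic replicates 1 to 4. It was highest in replicate 1 of each group, where leukocyte markers were also highest. Lipa, the lysosomal acid lipase, stood at 270.2 ± 156 and 175 ± 104 TPM, and Npc2, a lysosomal sterol carrier, at 260.0 ± 127 and 171 ± 64.2 TPM. Macrophage and monocyte markers differed with the same sign: all 7 tested had a fold change below 0 (median −0.79), with Lyz2 at 6418 ± 4019.8 and 2334 ± 1305 TPM. All 7 T cell markers had a fold change above 0 (median 1.08). None of these markers was called, and their part in these levels was not tested.

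Between trogocytic and non-trogocytic co-cultures, none of the 33 tested genes was called, against 6, or 0.0525%, of all genes. Values were log2(TPM + 1) and the two-sided test was limma's, allowing the variance to follow the mean and adjusting over all 11433 genes, and the lowest adjusted p of any of the 33 was 0.9998. At an unadjusted p below 0.05, 1 gene was lower, Mvk, against 2.52% of all genes, and 0 were higher, against 2.07%. In none of the 33 did the groups stand clear of each other, against 2.68% of all genes, 1.37% higher and 1.3% lower. Of the 33, 13 had a fold change above 0 and 20 below, against 50.7% above over all genes. These counts are a description, since the genes move together between libraries.

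For Mvk, the log2 fold change on the log2(TPM + 1) scale was −1.34 ± 0.58 (SE; 95% interval −2.64 to −0.05), with an unadjusted limma p of 0.043 and an adjusted p of 0.9998. Its group values were 5.55 ± 4.66 and 1.26 ± 0.996 TPM (SD, n = 4 each). Mvk stood below 5 TPM in 7 of 8 libraries, and its unadjusted p stayed below 0.05 for 2 of the 8 libraries left out in turn. Without non-trogocytic replicate 1, where Tm7sf2 was listed at 0, the fold change of Tm7sf2 was −1.998 (unadjusted limma p 0.011) and that of Mvk missed 0.05. Pmvk, the next kinase in the pathway, had the opposite sign at 0.59 ± 0.39 (SE; 95% interval −0.27 to 1.46). The difference between the 2 kinases was not tested.

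Standard errors were smallest for Insig1, Msmo1 and other abundant genes. The log2 fold change was −0.02 ± 0.21 (SE; 95% interval −0.49 to 0.45) for Fdps, 0.13 ± 0.19 (SE; 95% interval −0.29 to 0.55) for Msmo1 and 0.11 ± 0.18 (SE; 95% interval −0.29 to 0.51) for Insig1. For these, a difference of 1 on the log2 scale lies outside the interval. Over the 20 genes with a mean of at least 20 TPM, fold changes ran from −0.31 to 0.59, with standard errors of 0.18 to 0.51. For 4 of these 20, Pmvk, Sqle, Nsdhl and Hsd17b7, the interval passed 1 on the log2 scale in one direction. For the scarcer genes the standard errors were 0.38 to 0.92. The fold changes were −1.04 ± 0.92 (SE; 95% interval −3.08 to 1.00) for Tm7sf2, −0.97 ± 0.73 (SE; 95% interval −2.58 to 0.64) for Fads2 and 0.89 ± 0.92 (SE; 95% interval −1.14 to 2.92) for Scd2. For Nsdhl it was −0.31 ± 0.34 (SE; 95% interval −1.06 to 0.44), for Insig2 −0.22 ± 0.33 (SE; 95% interval −0.96 to 0.52) and for Elovl5 −0.26 ± 0.32 (SE; 95% interval −0.98 to 0.45). A missed threshold does not show that levels were equal.

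**Figure D4:**
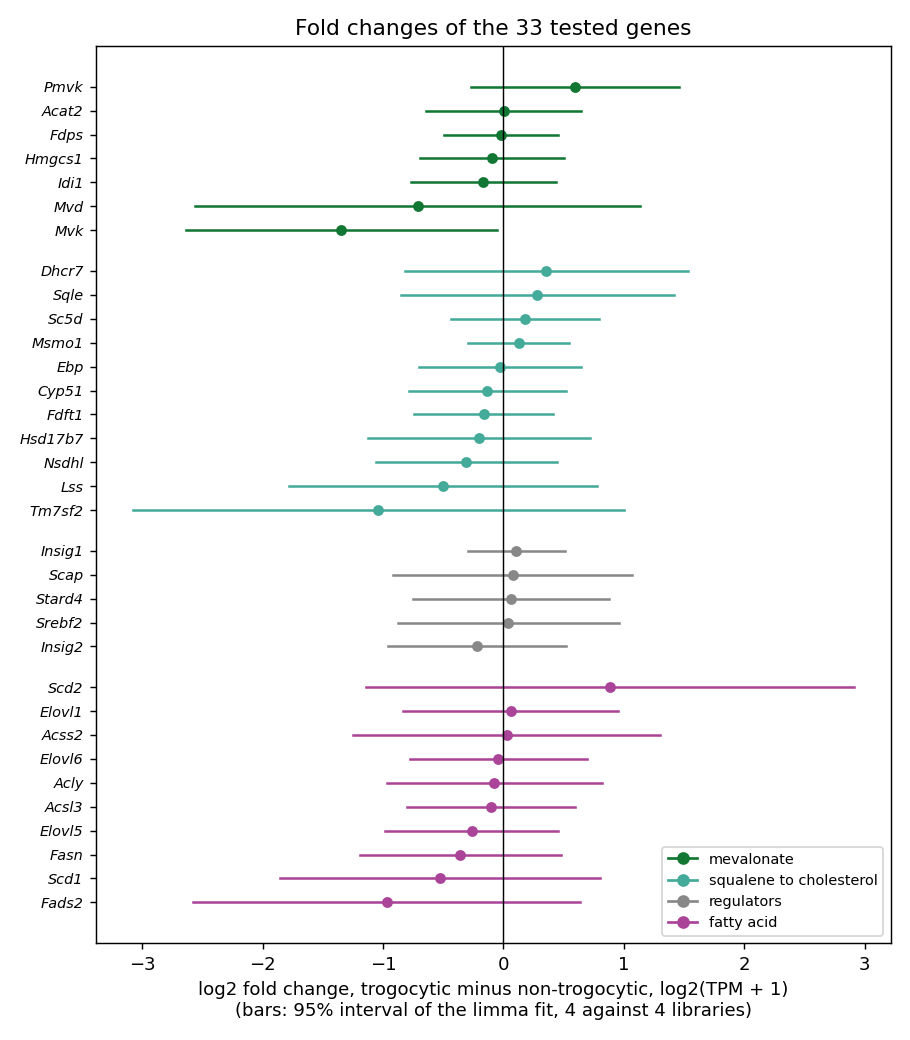
Log2 fold change of the 33 tested genes, trogocytic minus non-trogocytic on the log2(TPM + 1) scale, with 95% intervals of the limma fit (4 against 4 libraries), by role. All intervals cross 0 except that of Mvk, −2.64 to −0.051, which is not adjusted for the number of genes.

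The distance between the branches was similar in both groups with all libraries, but moved when single libraries were left out. The median log2 fold change was −0.12 over 18 sterol genes and −0.089 over 10 tested fatty acid genes, against 0.0070 over all genes tested. The sterol mean minus the fatty acid mean was 1.92 ± 0.46 in non-trogocytic and 1.88 ± 0.29 in trogocytic co-cultures (log2, SD, n = 4 each). The difference between the groups was −0.041 ± 0.27 (SE). Leaving out control replicate 1 gave −0.32, and leaving out control replicate 4 gave 0.051. Here and in the medians below, each refit used only genes that still passed the filter, so the gene set could also change. Without control replicates 1 and 4, 32 and 31 of the 33 genes remained, and Fads2 was lost in both cases. The sterol and fatty acid medians became −0.30 and −0.24 when control replicate 1 was dropped, and turned to 0.058 and 0.023 when control replicate 2 was dropped. By arm, 2 of 7 mevalonate genes, 4 of 11 genes from squalene to cholesterol, 4 of 5 regulators and 3 of 10 fatty acid genes had a fold change above 0. With the epithelial covariate, none of the 33 was called. Mvk then had a log2 fold change of −1.32 and an unadjusted limma p of 0.054, against −1.34 and 0.043 without it.

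Of 40 other genes of these pathways, 35 were tested and none was called, against 0.0525% of all genes. At an unadjusted limma p below 0.05, 1 was higher, against 2.07% of all genes, and 1 was lower, against 2.52%. Mid1ip1, which promotes the polymerisation and activity of acetyl-CoA carboxylase, stood at 6.35, 5.36, 1.29 and 2.35 TPM in non-trogocytic replicates 1 to 4 and at 20.9, 6.36, 5.87 and 19.1 TPM in trogocytic replicates 1 to 4. Trogocytic replicates 1 and 4 were well above the rest, and the groups overlapped, with trogocytic replicate 3 below non-trogocytic replicate 1. Its log2 fold change was 1.49 ± 0.59 (SE; 95% interval 0.19 to 2.79), with an unadjusted limma p of 0.029 and an adjusted p of 0.9998. Erlin2, an endoplasmic reticulum protein of INSIG and SREBP turnover, stood at 4.42, 13.3, 4.27 and 5.47 TPM in non-trogocytic replicates 1 to 4 and at 1.22, 2.14, 1.56 and 2.87 TPM in trogocytic replicates 1 to 4. All 4 trogocytic libraries were below all 4 non-trogocytic ones, as in 1.3% of all genes in that direction. Its log2 fold change was −1.31 ± 0.48 (SE; 95% interval −2.38 to −0.25), with an unadjusted limma p of 0.020 and an adjusted p of 0.9998. Its partner Erlin1 stood at 6.90 ± 3.97 and 4.13 ± 2.17 TPM, with a fold change of −0.65 ± 0.55 (SE; 95% interval −1.86 to 0.56).

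Several other genes of these lists were abundant. Erg28, a scaffold of the C4-demethylation enzymes, stood at 118 ± 32.8 and 82.0 ± 28.7 TPM (SD, n = 4 each). Hsd17b12, the ketoacyl reductase of fatty acid elongation, stood at 401 ± 62.6 and 418 ± 52.0 TPM, the most abundant of the fatty acid genes in either list. Soat1, which esterifies cholesterol for storage, stood at 138 ± 33.6 and 95.6 ± 22.9 TPM, with a fold change of −0.52 ± 0.24 (SE; 95% interval −1.06 to 0.02) and an unadjusted limma p of 0.057 (adjusted p 0.9998), beside the macrophage markers given above. Acacb, the mitochondrial carboxylase isoform, was listed at 0 in all 8 libraries, and Faxdc2 was not matched by symbol.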

How the data were processed

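Polyadenylated RNA was sequenced as paired-end reads of 100 bp from 8 co-cultures, per the labels' protocols. HISAT2, StringTie 1.3.3 and DESeq 2 appear in the submitters' processing notes, with builds GRCm38 and mm10. Annotation release and strand setting: not given in the sources used here. Per the file headers, the authors deposited 1 table per library with coverage (signal, mean read depth per gene), FPKM and TPM. The TPM values were deposited scaled to 1 sum in each library. Coverage divided by FPKM of genes with 1 transcript gave the aligned bases.

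TPM was summed per gene ID. Genes with at least 1 TPM in 4 or more libraries were tested with limma 3.58.1 under R 4.3.3 on log2(TPM + 1). The test was two-sided, let the variance follow the mean, and was Benjamini-Hochberg adjusted over 11433 genes. Fold changes on this scale understate changes of low genes. No count model was used. The code was tested on simulated data, with the means and spreads of these genes and each gene drawn independently. It called 7.2% of simulated log2 changes of 1, 42.8% of changes of 2 and 69.4% of changes of 3. Of the calls, 4.7% were false.

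Members and lists were chosen with earlier results of these data known. Values in every library are given for genes called or not overlapping and, in each role, for 2 by lowest unadjusted p and 2 by highest mean; other members get ranges or means. Other pathway genes outside this rule and the 5 promoters were chosen after their values were seen. Alternatives changed the pseudocount, unit, scaling, filter, variance model, summing by symbol and replicate block, left libraries out, or added an epithelial covariate.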

Additional observations from a re-analysis of the deposited data

Results flagged for a closer look

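Over 78 groups of 4 libraries (36 genes and 3 branch values, in 2 groups each), 7 held a library far from the other 3 by Dixon's test, where chance flags about 1 in 20. In trogocytic co-cultures, Mvk stood at 2.75 TPM in replicate 1, Fdft1 at 134 TPM in replicate 3, Ebp at 91.6 TPM in replicate 1, Srebf1 at 3.42 TPM in replicate 3 and Fads2 at 4.65 TPM in replicate 3. In non-trogocytic co-cultures, Tm7sf2 was listed at 0 in replicate 1. There the mean log2 level of the tested fatty acid genes stood at 4.09 in replicate 2.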

How the results depend on the processing

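None of the 36 genes was called in the 19 alternatives, and the lowest adjusted p of any of them was 0.72. The number of calls over all genes, 6, was 3 with FPKM, 1 when unfiltered, 1 with a constant prior variance, 0 without the first replicates of both groups and 0 to 3 with each of the 8 libraries left out in turn. The replicate block left 0 calls, alone and with median-of-ratios scaling. Same-numbered libraries had correlations of deviations of 0.235, 0.0050, 0.062 and −0.093. The value for the first replicates was the highest of any pair across the groups. The labels state no pairing, and so few correlations cannot decide whether there was one. Mvk, the 1 gene lower at an unadjusted p below 0.05, kept it in 9 of the 17 alternatives in which it was fitted. With no filter Mvk missed it, at the same fold change of −1.34 (unadjusted limma p 0.066). The count was also 0 with a minimum of 5 TPM, which Mvk does not reach, and 0 with the epithelial covariate. With single libraries left out, 0 to 1 genes were lower and 0 to 1 higher at that p: Mvk kept it in 2 of 8 cases, without non-trogocytic replicate 4 or trogocytic replicate 1. Without non-trogocytic replicate 1 the 1 gene lower was Tm7sf2, and without non-trogocytic replicate 2 Pmvk was higher. With 1 library left out, fewer samples were fitted; otherwise the cause was not tested.

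With single libraries left out, the sterol median fold change ran from −0.30 to 0.058, the fatty acid median from −0.25 to 0.023 and the branch difference from −0.32 to 0.051. The sterol extremes came without non-trogocytic replicate 1 or 2. Without non-trogocytic replicate 1 the size of the branch difference lay between the trogocytic SD of 0.29 and the non-trogocytic SD of 0.46. Fads2 did not pass the filter in that refit, so the shift reflects a changed gene set as well as the library left out. Signs turned for 6 of the 15 named genes. With single libraries left out, Acat2 ran from −0.28 to 0.24, Fdps from −0.20 to 0.11, Ebp from −0.28 to 0.18, Stard4 from −0.13 to 0.37, Scd2 from −0.024 to 1.57 and Elovl1 from −0.26 to 0.40. Acat2 was −0.050 with FPKM and −0.28 without the first replicates, where Elovl1 was −0.37. With the epithelial covariate, Fdps was 0.010 and Ebp 0.021. Depth limits the genes below 5 TPM.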
